A study of Mus musculus with 2 samples.

Results

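The INK4 and CIP/KIP genes encode the inhibitors of the cyclin-dependent kinases. The 7 genes described here (Cdkn2a, Cdkn2b, Cdkn2c, Cdkn2d, Cdkn1a, Cdkn1b and Cdkn1c) were taken by symbol from an RNA sequencing table of mouse small-intestinal villi. They occupied 9 of its 22040 RefSeq transcript rows, 7 of 20722 gene symbols. Cdkn2a and Cdkn1a had 2 rows each, and the others 1. The study compared 1 library from villi labelled as lacking both Ring1a and Ring1b (dKO, double knockout) with 1 control library. The dKO-labelled mice were C57BL/6 with the genotype Rosa26-CreERT2 Cdkn2a-/- Ring1a-/- Ring1bf/f, and the control was C57BL/6 Rosa26-CreERT2 Cdkn2a-/-. Both groups therefore carried the tamoxifen-inducible Cre and lacked functional Cdkn2a, and both were taken 6 days after 3 tamoxifen injections. Rosa26 is active in most cell types, so the Cre is not restricted to epithelium, and Ring1a loss was constitutive. The labels used here give neither ages nor the number of mice behind each library. With 1 library per genotype there is no replicate check for any difference, and the intervals are 95% exact counting intervals that cover counting error only.

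INK4 proteins (p16 from Cdkn2a, p15 from Cdkn2b, p18 from Cdkn2c and p19 from Cdkn2d) bind Cdk4 and Cdk6 and keep them from pairing with D-type cyclins. CIP/KIP proteins (p21 from Cdkn1a, p27 from Cdkn1b and p57 from Cdkn1c) bind complexes of cyclins with several kinases, mainly those of Cdk2. Kinase activity releases E2F factors from the RB proteins and commits a cell to DNA replication, and both inhibitor classes act against this step. Ring1 (Ring1a) and Rnf2 (Ring1b) are the ubiquitin ligases of Polycomb repressive complex 1, for which the Cdkn2a-Cdkn2b locus is a classical target in mouse cells. In the villus, which carries differentiated epithelium, the cells have left the cycle.

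CpG-rich promoters are where Polycomb complexes are recruited in mammals, and the promoters of the 3 inhibitors with enough reads to compare are shown for that reason. Each covers 300 bases around a RefSeq start site in build GRCm38, 5′ to 3′ on the gene's strand, with every CG in capitals.
Cdkn2b, chr4:89310983-89311282, minus strand: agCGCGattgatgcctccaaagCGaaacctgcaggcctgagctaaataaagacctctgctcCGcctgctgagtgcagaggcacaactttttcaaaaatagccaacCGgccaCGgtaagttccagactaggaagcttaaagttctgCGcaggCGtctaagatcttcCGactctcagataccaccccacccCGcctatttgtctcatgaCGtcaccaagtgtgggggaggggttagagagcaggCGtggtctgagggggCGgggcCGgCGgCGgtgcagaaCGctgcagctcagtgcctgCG
Cdkn1b, chr6:134920151-134920450, plus strand: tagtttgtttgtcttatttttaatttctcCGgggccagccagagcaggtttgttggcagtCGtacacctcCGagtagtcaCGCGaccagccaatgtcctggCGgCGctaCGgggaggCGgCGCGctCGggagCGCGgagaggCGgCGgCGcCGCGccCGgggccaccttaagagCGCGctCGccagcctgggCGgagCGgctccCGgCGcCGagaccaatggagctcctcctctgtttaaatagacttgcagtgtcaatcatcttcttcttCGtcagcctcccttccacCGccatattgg
Cdkn1a, chr17:29093519-29093818, plus strand: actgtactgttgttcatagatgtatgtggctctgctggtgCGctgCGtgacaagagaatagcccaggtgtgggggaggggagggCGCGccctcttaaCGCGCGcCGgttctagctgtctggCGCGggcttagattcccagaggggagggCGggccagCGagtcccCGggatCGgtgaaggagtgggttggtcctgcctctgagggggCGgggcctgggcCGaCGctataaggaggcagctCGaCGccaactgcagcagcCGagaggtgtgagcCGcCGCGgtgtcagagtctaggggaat
The Cdkn2b promoter held 18 CG, a number reached by 29.9% of 32544 RefSeq promoters of this length. The Cdkn1b promoter held 30 (reached by 11.8%) and the Cdkn1a promoter 23 (reached by 21.7%), against a median of 7 over all promoters. A further Cdkn1a start site in RefSeq had a promoter with 2. The GC box GGGCGG, searched on both strands, occurred 1 time at Cdkn2b, 1 time at Cdkn1b and 2 times at the Cdkn1a promoter shown, and 35.9% of all promoters held it at least 1 time. These letter counts are descriptions, and the data hold no measurement of Polycomb binding.

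The dKO-labelled library held 1058196 recovered reads and the control library 775827. Ring1 had 10 reads in the dKO-labelled library and 10 in the control, and Rnf2 had 82 and 59, so whole-transcript counts did not show the deletion, and the library's name follows its label alone. Sums of cell type markers differed between the libraries, with folds given under the deposited scaling alone. Other scalings, described below, shifted the median log2 ratio of genes with a mean normalised count of at least 20 by -0.29 to -0.63. No direction is given for the enterocyte and enteroendocrine sums for that reason. Over 9 of 11 fibroblast markers with a row, 297 reads in the dKO-labelled library stood against 47 in the control (5.70-fold, 4.18 to 7.92), with Dcn at 0 in both. Over 10 smooth muscle markers the sums were 556 and 199 reads (2.52-fold, 2.14 to 2.98), with Myh11, Lmod1 and Synpo2 at 0 in the control. Mylk alone held 311 and 152 of these, and without it the sums were 245 and 47 (4.70-fold, 3.43 to 6.56). Over 8 crypt stem cell markers they were 206 and 100 (1.86-fold, 1.46 to 2.38), with Tnfrsf19 at 0 in the dKO-labelled library and Olfm4 at 0 in the control. Over 8 of 9 endothelial markers they were 55 and 66 (0.751-fold, 0.515 to 1.09), with Emcn at 0 in both and Cdh5 and Vwf at 0 in the control. Tie1 alone had 5 and 48 of these, and without it the sums were 50 and 18 (2.50-fold, 1.44 to 4.56). Tie1 was the only 1 of these markers with a mean normalised count of at least 20, so no direction is given for them. The 11 enterocyte markers, none of them at 0, summed to 12829 and 9457 reads (1.22-fold, 1.19 to 1.26). Goblet cell markers (7 genes) summed to 4030 reads in the dKO-labelled library and 5115 in the control (0.710-fold, 0.681 to 0.740), and 6 Paneth cell markers to 3208 and 1729 (1.67-fold, 1.58 to 1.77). The 10 enteroendocrine markers summed to 2825 and 1828 reads (1.39-fold, 1.31 to 1.48), with Cck at 0 in both and Pax6 at 0 in the control. Chga (920 and 395) and Chgb (1192 and 593) held most of these reads. Gip (0.573-fold, 0.486 to 0.674), Pyy (0.336-fold, 0.196 to 0.557) and Sst (0.378-fold, 0.229 to 0.607) were lower in the dKO-labelled library. Of the 7 with a mean normalised count of at least 20, 3 had a log2 ratio above 0, and the median was -0.25. The 6 tuft cell markers summed to 137 and 307 (0.402-fold, 0.326 to 0.494), with Dclk1 and Gfi1b at 0 in both. Trpm5 alone had 33 and 189 of these. The intervals of Avil (0.802-fold, 0.577 to 1.11), Pou2f3 (0.689-fold, 0.397 to 1.18) and Il25 (2.25-fold, 0.369 to 23.7) all held 1. Xist had 1 read in the dKO-labelled library and 80 in the control, and the Y-linked gene Ddx3y 131 and 0, so sex and genotype cannot be told apart.

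Cdkn2b was the inhibitor with the most reads and with the largest difference among those with enough reads. It (NM_007670) had 303 reads in the dKO-labelled library and 86 in the control, or normalised counts of 289 and 91.6. The dKO-labelled library was 3.18-fold higher (2.49 to 4.08). Cdkn1b (NM_009875) had 72 reads in the dKO-labelled library and 59 in the control, normalised counts of 69.3 and 63.2, and a fold of 1.10 (0.769 to 1.58). Cdkn1a (NM_007669) had 25 and 16 reads, normalised counts of 24.7 and 17.9, and a fold of 1.41 (0.723 to 2.82). The intervals of Cdkn1b and Cdkn1a both held 1, so no difference was detectable at this depth.

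**Figure D1:**
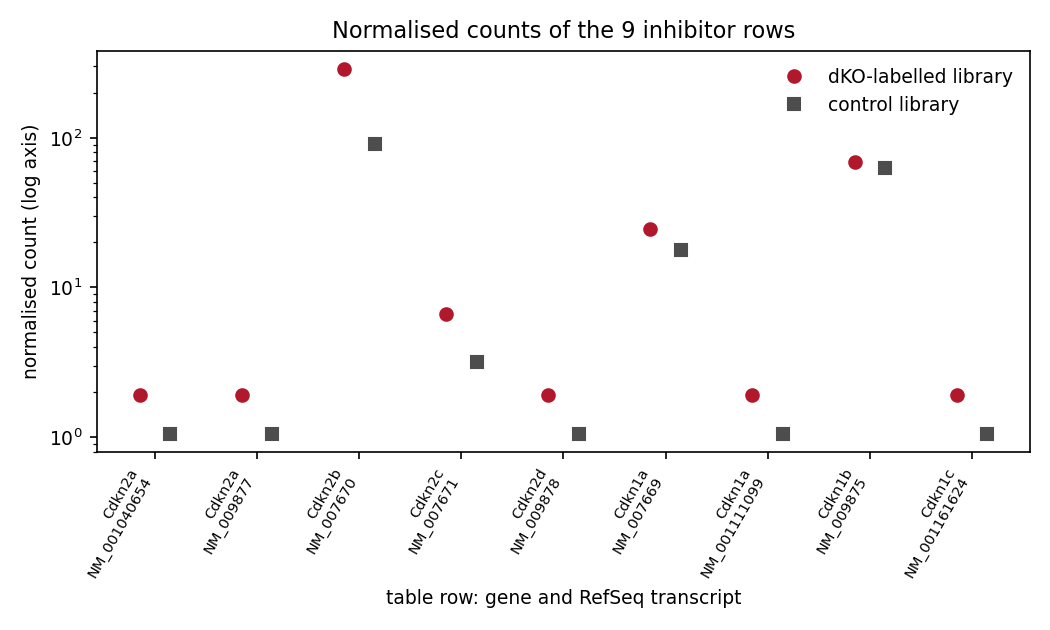
Normalised count (log axis) of each of the 9 inhibitor rows in the dKO-labelled library (circles) and the control library (squares), 1 library each. Cdkn2b stands apart at 289 in the dKO-labelled library and 91.6 in the control, the 2 points of Cdkn1b lie close together, as do those of Cdkn1a, and 5 rows lie at the bottom with 1 read in the dKO-labelled library and 0 in the control.

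The other INK4 members were at the edge of detection. Cdkn2c (NM_007671) had 6 reads in the dKO-labelled library and 2 in the control, a fold of 2.70 whose interval ran from 0.484 to 27.4. Cdkn2d (NM_009878) was listed at 1 and 0 reads. Both Cdkn2a rows, NM_001040654 and NM_009877, were also listed at 1 read in the dKO-labelled library and 0 in the control. Among the CIP/KIP genes the second Cdkn1a row (NM_001111099) and the Cdkn1c row (NM_001161624) had the same values. No fold is given for these 5 rows, since both values lie under a floor of 3 reads, which corresponds to normalised counts of 2.85 in the dKO-labelled library and 3.16 in the control.

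Listed zeros in the table do not show that a gene was silent. Trp53 was listed at 0 reads in both libraries and Nap1l4 at 1 and 0, although such genes are used by most cells. Of 18214 protein-coding gene symbols with a RefSeq match, 35.7% had at most 1 read in each library. The share was 34.4% where RefSeq holds 2 or more transcripts and 36.4% where it holds 1. The pattern of 1 read in the dKO-labelled library and 0 in the control was found in 1547 rows (7.02%). The Cdkn2a value is thus no check of the deleted allele, and Cdkn1c, an imprinted gene, and Cdkn2d could not be compared.

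Sequence shared between rows bears on some of these values. The 2 Cdkn2a transcripts hold 65.9% and 62.5% of their 50-base windows in common with each other, and of the Cdkn1a rows NM_007669 shares 40.3% and NM_001111099 86.0%. Cdkn2b shared no 50-base window with the transcripts of any other gene in GENCODE M21, nor did Cdkn1b, Cdkn2a, Cdkn2c or Cdkn2d. Cdkn1c overlaps the antisense gene Gm44732 over 30.7% of its exonic bases, and Cdkn1a overlaps AC167363.2 over 7.7%. No strand setting is given, so reads of these 2 genes could not be told from those of the opposite strand.

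Against all genes, Cdkn2b lay in the upper tail of the ratios. Of 6001 genes measured at a mean normalised count of at least 20, 3 were inhibitors, and 1 of these, Cdkn2b, was at least 2-fold higher, against 26.2% of all measured genes. None of the 3 was at least 2-fold lower, against 4.18%. A log2 ratio as high as that of Cdkn2b (1.64) was reached by 568 measured genes (9.47%). Under the deposited scaling the Cdkn2b interval lay wholly above 2-fold, as it did for 10.4% of measured genes. An interval wholly above 1 was found for 52.5%. A binomial test on the reads, which compares the 2 libraries and not the conditions, called 61.8% of measured genes in either direction, and of the inhibitors it called Cdkn2b alone. Cdkn1a (log2 ratio 0.44) and Cdkn1b (0.13) lay below the median log2 ratio of the measured genes, 0.51, with 53.6% and 69.8% of genes at or above them. In the authors' deposited table the unadjusted p-values were 0.221 for Cdkn2b, 0.794 for Cdkn1a (NM_007669) and 0.935 for Cdkn1b, and 0 of the 9 rows had one under 0.05, as 123 transcripts did in all.

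**Figure D2:**
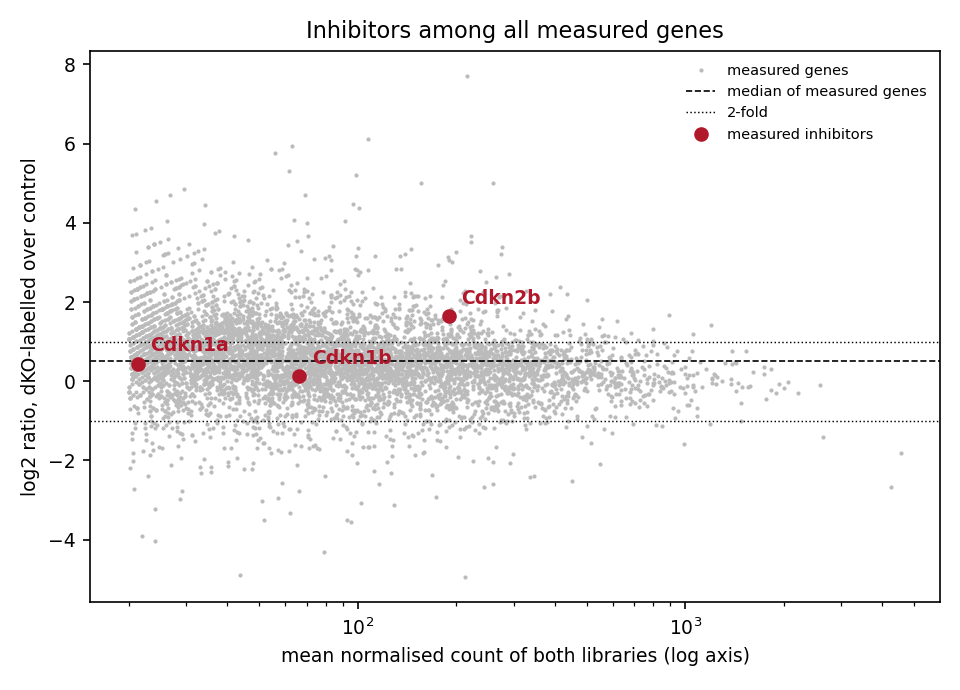
Log2 ratio of normalised counts, dKO-labelled over control, against the mean normalised count of both libraries (log axis) for 6001 measured genes (grey) with the 3 measured inhibitors in red. The dashed line is the median log2 ratio, 0.51, and the dotted lines mark 2-fold. Cdkn2b lies above the upper dotted line at 1.64, Cdkn1a lies just under the median at 0.44, and Cdkn1b lies further below it at 0.13.

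The size of the Cdkn2b difference followed the scaling of the libraries, and its direction did not. Its log2 ratio was 1.64 with the deposited size factors, 1.35 with total reads, 1.14 with the median of measured genes set to 0, 1.12 with TMM and 1.01 with the upper quartile. These scalings shift the median log2 ratio of all measured genes by -0.29, -0.51, -0.52 and -0.63. Relative to that median the Cdkn2b value was still at least 2-fold higher, as were 11.8% of measured genes. No counting interval was set against 2-fold under these other scalings. Cdkn1b was at 0.13 with the deposited factors and at -0.16 with total reads, -0.38 with the median set to 0, -0.39 with TMM and -0.50 with the upper quartile. Cdkn1a was at 0.44 with the deposited factors, and it fell below 0 with TMM (-0.06), the median set to 0 (-0.06) and the upper quartile (-0.17). No direction is given for Cdkn1a and Cdkn1b for that reason.

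**Figure D3:**
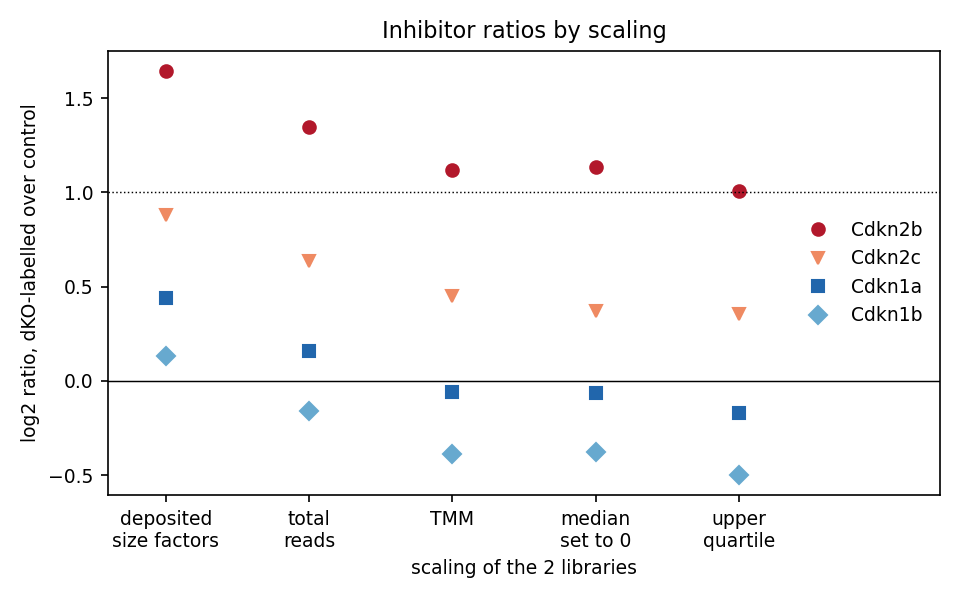
Log2 ratio, dKO-labelled over control, of Cdkn2b, Cdkn2c, Cdkn1a and Cdkn1b under 5 scalings of the 2 libraries. Cdkn2b falls between 1.64 and 1.01 and stays above the dotted 2-fold line, while Cdkn1a and Cdkn1b change sign.

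Ratios taken within a library do not depend on the scaling. Cdkn2b had 4.21 reads for each Cdkn1b read in the dKO-labelled library and 1.46 in the control, a 2.89-fold difference (1.85 to 4.48). It had 12.1 reads for each Cdkn1a read (NM_007669) in the dKO-labelled library and 5.38 in the control, 2.25-fold (1.07 to 4.61). Cdkn2b made up 73.7% (69.2 to 77.9%, Clopper-Pearson) of the 411 reads of the inhibitor rows in the dKO-labelled library and 52.8% (44.8 to 60.6%) of 163 in the control. Cdkn1b made up 17.5% (14.0 to 21.5%) in the dKO-labelled library and 36.2% (28.8 to 44.1%) in the control. The balance between these inhibitors thus differed between the libraries by more than counting error. Over the CIP/KIP rows together 99 reads stood against 75 (1.19-fold, 0.873 to 1.63), and over the INK4 rows 312 against 88, of which 9 and 2 were not Cdkn2b.

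Cdkn2b was also set against the marker sums within each library. Per read of the enterocyte markers, Cdkn2b was 2.60-fold higher in the dKO-labelled library than in the control (2.03 to 3.34). These 11 markers differed among themselves. Sis at 8.70-fold (6.19 to 12.6) and Lct at 4.15-fold (3.53 to 4.89) had larger folds than Cdkn2b. The next highest was Vil1 at 1.69-fold (1.56 to 1.83), and per Vil1 read Cdkn2b was 1.88-fold higher (1.45 to 2.44). Per read of the goblet cell markers Cdkn2b was 4.47-fold higher (3.49 to 5.77), and per read of the crypt stem cell markers 1.71-fold (1.20 to 2.43). Per smooth muscle marker read the value was 1.26 (0.937 to 1.71), and without Mylk it was 0.676 (0.445 to 1.02), so its direction rests on 1 gene. Per fibroblast marker read it was 0.558 (0.369 to 0.836), lower in the dKO-labelled library. In bulk villi more cells of a type and more RNA per cell cannot be told apart, and the part of these marker differences in the Cdkn2b result was not tested.

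Per kilobase of transcript, the inhibitors had the same order in both libraries. Normalised counts per kilobase for Cdkn2b were 208 in the dKO-labelled library and 65.9 in the control, for Cdkn1b 29.0 and 26.4, for Cdkn1a (NM_007669) 12.9 and 9.36, and for Cdkn2c 6.01 and 2.86. In reads per length Cdkn2b exceeded Cdkn1b 7.24-fold in the dKO-labelled library (5.59 to 9.50) and 2.51-fold in the control (1.78 to 3.56). Cdkn1b exceeded Cdkn1a 2.30-fold in the dKO-labelled library (1.44 to 3.79) and 2.95-fold in the control (1.67 to 5.49). Cdkn1a and Cdkn2c were not separated in the dKO-labelled library (2.41-fold, 0.965 to 7.18) and were just separated in the control (4.63-fold, 1.09 to 41.5).

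Among the partners of INK4 proteins, Ccnd2 and Cdk4 were at least 2-fold higher in the dKO-labelled library. Of 5 INK4 target genes, 3 were measured, and these 2 passed 2-fold, also relative to the median of measured genes. Their median log2 ratio was 1.94, against 0.51 over all measured genes. Ccnd2, a D-type cyclin, had 467 reads in the dKO-labelled library and 94 in the control (4.48-fold, 3.58 to 5.65). Cdk4, the kinase that p15 binds, had 104 and 23 reads (4.08-fold, 2.58 to 6.71). Ccnd1 had 91 and 43 reads (1.91-fold, 1.31 to 2.81). Cdk6 had 6 reads in the dKO-labelled library and 3 in the control (1.80-fold, 0.385 to 11.1), and Ccnd3 was listed at 2 and 0. Cdkn2b had 2.91 reads for each Cdk4 read in the dKO-labelled library and 3.74 in the control, a ratio of 0.779 whose interval, 0.445 to 1.32, held 1. For Ccnd2 the values were 0.649 and 0.915, a ratio of 0.709 (0.505 to 0.997), so that Ccnd2 was further apart between the libraries than Cdkn2b, just beyond counting error.

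**Figure D4:**
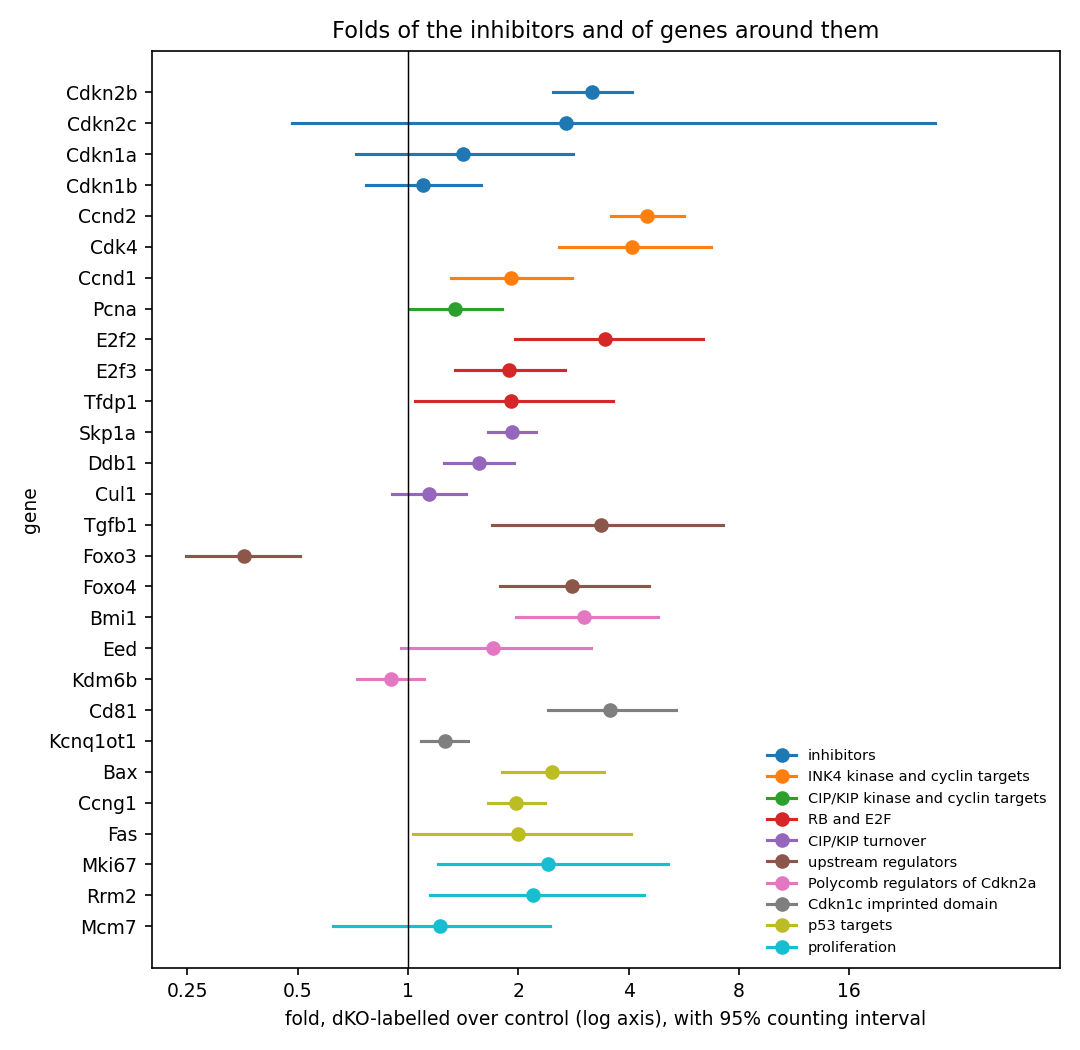
Fold of reads, dKO-labelled over control (log axis), with 95% counting intervals as bars, for 4 inhibitors and up to 3 measured genes of each list around them, coloured by list. Cdkn2b at 3.18, Ccnd2 at 4.48 and Cdk4 at 4.08 lie clear of 1, the bars of Cdkn1a and Cdkn1b cross it, and Foxo3 lies below it at 0.357.

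Of the 9 CIP/KIP kinase and cyclin targets, 7 had a row and 1 was measured. Pcna, the replication clamp that p21 binds, had 124 reads in the dKO-labelled library and 83 in the control (1.35-fold, 1.01 to 1.80). Cdk2 was not analysed here. Of 13 RB and E2F genes, 11 of them with a row, 5 were measured, and 1 was at least 2-fold higher, also relative to the median. It was E2f2, an activator of S-phase genes, with 61 reads in the dKO-labelled library and 16 in the control (3.44-fold, 1.96 to 6.39). E2f3 and the dimer partner Tfdp1 were at 1.89-fold (1.35 to 2.68) and 1.91-fold (1.04 to 3.62). Rb1, the retinoblastoma gene, had 77 and 71 reads (0.978-fold, 0.699 to 1.37).

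Proliferation genes had few reads in both libraries. Of 18 such genes 3 were measured, and 2 were at least 2-fold higher and 0 relative to the median of measured genes. Mki67 had 32 reads in the dKO-labelled library and 12 in the control (2.40-fold, 1.21 to 5.12), Rrm2 34 and 14 (2.19-fold, 1.14 to 4.42) and the helicase subunit gene Mcm7 23 and 17 (1.22-fold, 0.624 to 2.43). Over the 16 of 18 genes with a row, 236 reads stood against 98 (2.17-fold, 1.71 to 2.78). Genes for the turnover of CIP/KIP proteins gave 0 of 4 measured genes past 2-fold. Skp1a, a subunit of the ligase that marks p27 for destruction, was at 1.92-fold (1.65 to 2.24), Ddb1 at 1.56-fold (1.26 to 1.95) and Cul1 at 1.14-fold (0.906 to 1.44). Skp2, its substrate receptor, was listed at 0 reads in both libraries.

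Among 18 upstream regulators 13 were measured, of which 2 lay at least 2-fold up and 1 at least 2-fold down, or 1 and 2 relative to the median. Tgfb1, whose protein induces Cdkn2b in epithelial cells, had 41 reads in the dKO-labelled library and 11 in the control (3.36-fold, 1.70 to 7.25). The receptor gene Tgfbr1 shared this direction at 1.96-fold (1.08 to 3.72), and the measured Smad genes did not. Smad3 was at 0.795-fold (0.553 to 1.14), an interval that held 1, and Smad4 at 0.707-fold (0.555 to 0.901). Smad2 and Tgfbr2 had at most 1 read in each library. A link of these values to Cdkn2b was not tested. The 3 forkhead factors of the list, which activate Cdkn1b, did not share a direction. Foxo1 had 122 reads in the dKO-labelled library and 113 in the control (0.973-fold, 0.747 to 1.27). Foxo4 had 81 reads in the dKO-labelled library and 26 in the control (2.81-fold, 1.79 to 4.55), and Foxo3 had 46 and 116, which was 2.80-fold lower in the dKO-labelled library (1.97 to 4.03). Mdm2, the p53 ligase, had 208 and 181 reads (1.04-fold, 0.845 to 1.27). Of 14 p53 target genes, the class to which Cdkn1a belongs, 8 were measured. At least 2-fold higher was 1 of them, and 0 relative to the median. Bax, a mediator of apoptosis, was at 2.47-fold (1.81 to 3.43), Ccng1 at 1.97-fold (1.65 to 2.37) and Fas at 2.00-fold (1.03 to 4.06), beside 1.41-fold for Cdkn1a.

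Polycomb regulators of Cdkn2a had 3 of 10 genes measured. Bmi1, a PRC1 subunit and classical repressor of the locus, had 94 reads in the dKO-labelled library and 28 in the control (3.03-fold, 1.97 to 4.79), and it was at least 2-fold higher also relative to the median. Eed, a PRC2 subunit, was at 1.71-fold (0.954 to 3.15), and Kdm6b, an H3K27 demethylase, at 0.896-fold (0.725 to 1.11). Next to the Cdkn2a-Cdkn2b locus, Mtap had 16 reads in the dKO-labelled library and 2 in the control, a ratio of 7.21 (1.70 to 64.6), and Dmrta1 had 0 and 1. Of 8 genes of the imprinted domain that holds Cdkn1c, 2 were measured. Cd81 had 130 reads in the dKO-labelled library and 33 in the control (3.55-fold, 2.41 to 5.37), and the long non-coding RNA Kcnq1ot1 438 and 314 (1.26-fold, 1.09 to 1.46). Over all these lists 42 genes were measured, of which 10 (23.8%) were at least 2-fold higher and 1 (2.38%) lower, against 26.2% and 4.18% of all measured genes, so their share of higher genes was near the background. Their median log2 ratio was 0.70, against 0.51 over all measured genes. Under the other scalings the log2 ratios of Mdm2, Cul1, Mcm7, Kcnq1ot1, Pcna and Ddb1 dropped below 0 in at least 1 setting, so their folds carry no direction. That of Cdk4 stayed at or above 1.31, and that of Foxo3 at or below -1.37, in every setting run.

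The genes with values closest to those of each measured inhibitor were found by distance over the 2 log2 values. Nearest to Cdkn2b were Mrpl12, with 310 reads in the dKO-labelled library and 84 in the control, and Mtmr4, with 284 and 85. They were 0.05 and 0.09 away on the log2 scale, and 19 genes lay within 0.25. Nearest to Cdkn1b were Fam110c (72 and 58 reads) and Gtf3c2 (70 and 59), with 128 genes within 0.25. Ahsa2 and Fbxl12os had the same reads as Cdkn1a, 25 in the dKO-labelled library and 16 in the control, with 124 genes within 0.25. Over 2 libraries many genes share a pattern, and this likeness is a description of the 2 values alone.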

How the data were processed

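Messenger RNA libraries of villi, 1 per genotype, were sequenced after TruSeq RNA v2 preparation, per the labels' protocols. TopHat, DESeq and mm9 are named in the submitters' processing notes, without versions. Counting tool, strand setting and duplicate treatment: not given in the sources used here. Per the file headers, the signal columns as deposited hold DESeq base means, that is, normalised counts. All values (100% of rows within 0.001 of a step) were whole multiples of the smallest in their column, 0.949 for the dKO-labelled library and 1.05 for the control. They were read as counts plus 1 divided by a size factor, an inference from the values, and reads were recovered as steps minus 1. The deposited ratio (fold) and log2 columns by the authors follow from the signal columns, and the deposited p-value is unadjusted.

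A symbol with several rows (1171 symbols) was represented by the row of the highest mean. The measure was log2((dKO + 1)/(control + 1)) of normalised counts, with a minimum mean of 20 and a size rule of 2-fold in place of a test on replicates. For printed folds the ratio of recovered reads was divided by the size-factor ratio of 1.11, with 95% Clopper-Pearson intervals, and ratios within a library have exact conditional intervals. A count of 0 was not turned into a fold. Transcript lengths came from GENCODE M21 by RefSeq accession and can differ from the mm9 models. A RefSeq table of GRCm38, used for names, held 98.5% of the identifiers. Promoter sequences are RefSeq's in GRCm38, and the coordinates printed belong to that build.

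The members and the lists were chosen with earlier results of these data known. Named genes were the members, up to 3 measured genes of each of 10 lists with the largest absolute log2 ratio, their direct partners, and the 2 genes nearest to each measured inhibitor. Genes and marker sums set in ratio to Cdkn2b were chosen after their values were seen. Results for 1 list of marker genes are not reported here. Marker sums without Mylk or Tie1 were added after seeing the data, as were the values of Tgfbr1, Tgfbr2, Smad2, Smad3, Smad4, Sis, Lct and Vil1. The same holds for the reads and folds of other marker genes given singly. Alternatives were total-read, upper-quartile and TMM scaling, a median set to 0, a pseudocount of 5, the added read taken off, summed rows, other filters and interval rules. Added after seeing the data were a rule on the authors' p-values and a binomial test (exact) of recovered reads, which compares the 2 libraries, not the conditions, and called 3711 of 6001 measured genes at an adjusted p under 0.05 (Benjamini-Hochberg). Simulated data with 200 changed genes were used to test the functions. Python 3.11.15, pandas 2.3.3, numpy 2.4.6, scipy 1.17.1, matplotlib 3.10.9 and edgeR 4.0.16 (TMM) in R 4.3.3 were used.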

Additional observations from a re-analysis of the deposited data

How the results depend on the processing

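No replicate could be left out, as there is 1 library a genotype. No paired analysis was possible because the groups hold 1 library each. The log2 ratio of Cdkn2b moved outside its counting interval to 1.01 (upper quartile), 1.12 (TMM) and 1.14 (median set to 0), and that of Cdkn1b to -0.50 (upper quartile) and -0.39 (TMM). The count of inhibitors at least 2-fold higher was 1 in all settings run except the authors' unadjusted p-values, where it was 0. The count at least 2-fold lower was 0 in every setting run. List genes at least 2-fold higher and lower numbered 10 and 1 of 42 (all measured genes 26.2% and 4.18%). They numbered 4 and 2 under upper-quartile scaling (all genes 8.91% and 13.8%), 6 and 2 under TMM (11.1% and 11.2%) and 6 and 2 once the median was set to 0 (11.8% and 10.4%). They were 2 and 0 of 17 where a mean of 100 was required (14.8% and 4.31%), 3 and 0 with the interval beyond 2-fold (10.4% and 1.73%) and 26 and 2 with the interval beyond 1 (52.5% and 12.1%). The binomial test called 24 and 2 (50.2% and 11.6%). By the unadjusted p-value that the authors deposited, no list gene was called either way (0 and 0, against 1.38% and 0.267%). With no filter 27 of 94 were higher (17.9%). Depth limits Cdkn2a, Cdkn2c, Cdkn2d and Cdkn1c, which had at most 6 reads in a row.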
